A study of Rattus norvegicus with 12 samples.

Results

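Selenoproteins are proteins that carry selenocysteine, and their expression in the left ventricle was examined here through 10 genes picked by symbol: Selenop, Gpx1, Gpx3, Gpx4, Txnrd1, Txnrd2, Selenow, Selenot, Selenok and Dio2. A row with the symbol was found for 9 of the 10 genes, and the expression of Dio2, the deiodinase that makes active thyroid hormone inside cells, was not analysed here. Of these 9 genes, 8 passed the filter on low counts over all 12 rats, among 15617 genes that passed and 34700 in the table, and Gpx4 did not. The symbols were chosen with earlier results of these data in view, so the values of the members are given as a description, and the p-values locate a member among all genes and do not test the choice.

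The RNA came from the hearts of 12 male Sprague-Dawley rats, 3 in each of 4 groups, all 8 weeks old at surgery and killed 12 weeks later. Sham rats had chest surgery without ligation and were sedentary, and HF rats had heart failure after the left anterior descending coronary was tied off, and stayed sedentary. HFE rats had the same ligation and then 8 weeks of treadmill running, 60 min daily and 5 days weekly. BAIBA rats had the ligation and received β-aminoisobutyric acid, a metabolite released by working muscle, by gavage at 75 mg/kg/day for 8 weeks. The methods describe separate exercise and BAIBA studies, and in the latter Sham and HF rats received water by gavage. From which study the sequenced Sham and HF rats came is not stated outright. The supplement names transcriptomic sequencing as a use of the exercise-study hearts, and biochemical analysis for those of the BAIBA study. The labels call the HF rats sedentary. Between BAIBA and HFE, gavage and study cannot be told apart from the treatments. If the Sham and HF rats came from the exercise study, the same holds for BAIBA against Sham and against HF. According to the methods, left ventricular anterior wall was sampled, and in BAIBA rats the area around the infarct, while the results place HF and BAIBA tissue alike at the infarct border. Region and group therefore cannot be told apart where BAIBA is set against HFE or Sham, and against HF the sources differ.

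In selenoproteins, selenocysteine is inserted at a UGA codon, which needs a hairpin in the 3′ end of the mRNA, its binding protein Secisbp2 and a dedicated tRNA. Most members are oxidoreductases: glutathione peroxidases reduce peroxides, and thioredoxin reductases keep thioredoxin reduced. Selenop has a different role. It is a secreted protein with several selenocysteines that carries selenium from the liver to other tissues, where receptors of the LDL receptor family take it up. In heart muscle the family is known chiefly for selenium deficiency, which causes a cardiomyopathy.

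The upstream sequences of the members are shown for Selenop and Gpx3, the pair with the largest separation between BAIBA and HFE rats, and for Txnrd1 and Selenok, which held the core of the antioxidant response element. They are the RefSeq windows of 250 bases before an annotated start in the rat build GRCr8, in which all 10 genes were matched, with 14 windows in all. Capitals mark matches to the letters searched on both strands, TGACNNNGC for the core of the antioxidant response element, GTAAACA for the FOXO core, ACGTG for the core of the hypoxia response element, TATAAA for the TATA box and CACGTG for the E-box, which contains ACGTG. The Selenop window belongs to the second of its starts (chr2:54225662-54225911, plus strand), the Gpx3 window lies at chr10:39529085-39529334 (plus strand), the Selenok window at chr16:5158351-5158600 (plus strand), and the 30 bases of Txnrd1, from the second of its starts, at chr7:22755953-22755982 (minus strand).
Selenop: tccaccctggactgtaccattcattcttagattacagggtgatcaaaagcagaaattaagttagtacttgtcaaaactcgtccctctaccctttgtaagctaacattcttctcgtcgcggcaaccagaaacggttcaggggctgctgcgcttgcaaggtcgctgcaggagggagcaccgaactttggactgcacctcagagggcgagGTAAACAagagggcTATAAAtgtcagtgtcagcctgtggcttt
Gpx3: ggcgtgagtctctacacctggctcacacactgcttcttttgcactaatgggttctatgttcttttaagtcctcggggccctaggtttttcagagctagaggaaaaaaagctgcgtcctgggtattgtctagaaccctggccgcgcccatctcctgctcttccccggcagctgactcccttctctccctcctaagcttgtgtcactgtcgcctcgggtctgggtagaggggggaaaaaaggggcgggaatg
Selenok: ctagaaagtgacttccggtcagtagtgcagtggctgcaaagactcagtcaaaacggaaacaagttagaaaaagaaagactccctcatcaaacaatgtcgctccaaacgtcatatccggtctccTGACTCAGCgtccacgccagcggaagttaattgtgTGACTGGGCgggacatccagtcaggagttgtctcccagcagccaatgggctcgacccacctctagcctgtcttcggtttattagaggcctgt
Txnrd1: GCTTTGTCAttctgacacgggcagttcgcc

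In the Selenop window, the FOXO core began 43 bases before the start and a TATA box 29 bases before it. The FOXO core was found in 3.21% of 33469 windows of the same length and in windows of 2 members, Selenop and Dio2. Shares are of windows, whereas a member was counted where any of its windows matched, with 14 windows for the 10 genes. The windows of the first starts of Selenop and Txnrd1 held none of the letters searched. The antioxidant core was found in 10.1% of windows and in 2 members, Selenok with 2 matches and Txnrd1 with 1 match, which began 78 bases before the start on the reverse strand. The hypoxia core was found in 2 members (Selenow and Txnrd2) and 16.6% of windows, the TATA box in 4 members and 12.9%, and the E-box in 0 members and 5.59%. The Gpx3 window held none of these letters. A match is a description of the letters and not a binding site.

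Transcript abundance between genes was compared per length, with the deposited FPKM values averaged over 12 rats. Gpx1 had the highest level of the members (394 FPKM, from 256 to 509.5), above 99.2% of tested genes, and Selenop followed at 349 FPKM (254 to 475). Then came Gpx3 at 139 FPKM (72.5 to 214), Selenow at 98.1 FPKM (3.18 to 144), Selenok at 50.4 FPKM (36.1 to 63.4), Selenot at 36.0 FPKM (33.5 to 38.9), Txnrd1 at 22.2 FPKM (17.2 to 26.3) and Txnrd2 at 19.6 FPKM (14.8 to 22.4). The ranges of neighbours overlapped for Gpx1 and Selenop, Gpx3 and Selenow, Selenow and Selenok (through 2 rats with Selenow near 0), Selenok and Selenot, and Txnrd1 and Txnrd2. Selenop was above Gpx3 in 12 of 12 rats, Selenok above Selenot in 11, and Txnrd1 above Txnrd2 in 10. The secreted selenium carrier and the cytosolic peroxidase thus were the members with the highest mean FPKM, and the 2 reductases the least abundant of those tested.

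Gpx4, the peroxidase that reduces lipid hydroperoxides in membranes, had between 1 and 12 counts per rat (a mean of 0.137 FPKM). With so few counts no difference between groups was detectable for it, and it is left out of the comparisons below. Whether its reads were counted on another gene was not tested.

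**Figure D1:**
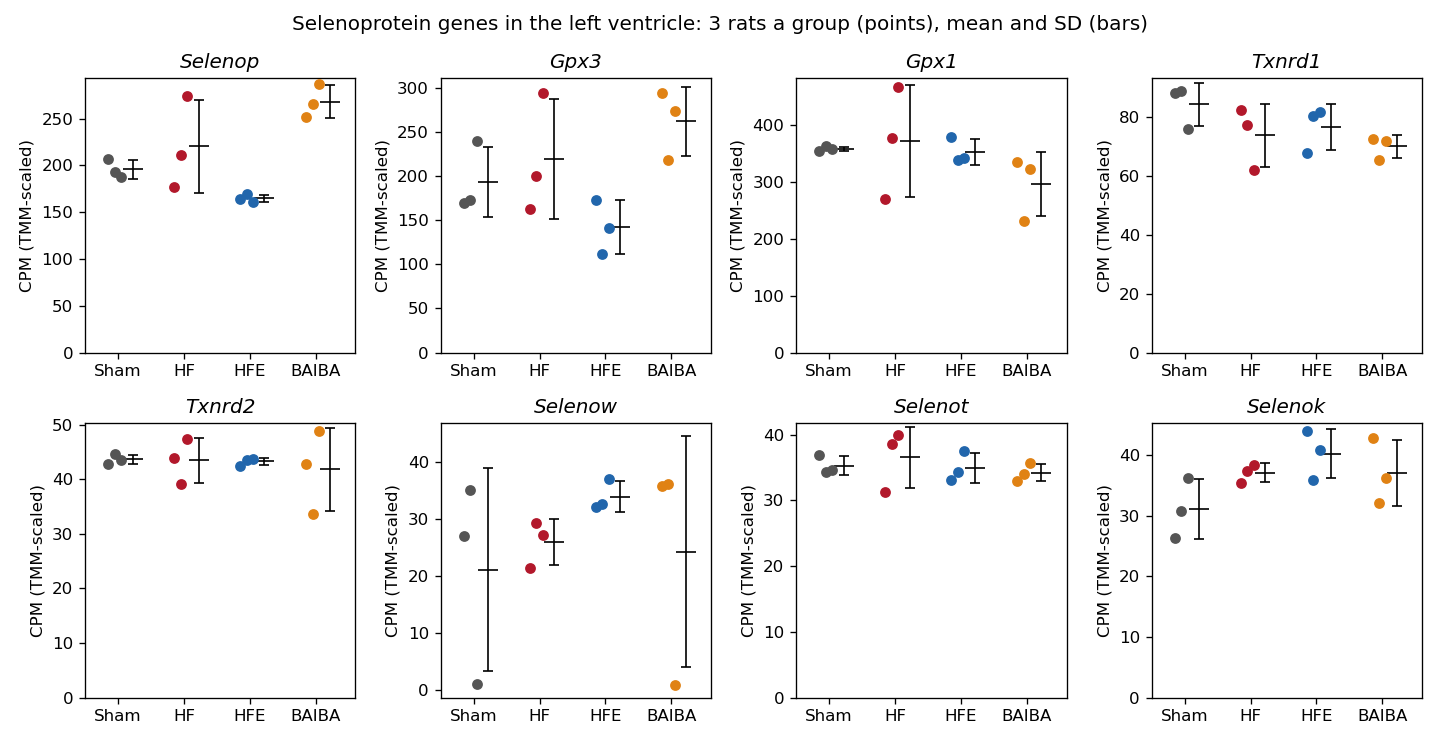
Normalised abundance (CPM, library-scaled counts with TMM factors, y axis) of the 8 tested members in the 4 groups (x axis), with a point for each of 3 rats and a bar for the mean and SD. The BAIBA rats sit above the HFE rats for Selenop and Gpx3, and 1 Sham and 1 BAIBA rat sit near 0 for Selenow.

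The first question was how infarction, exercise and BAIBA relate to the secreted members. In CPM (library-scaled counts with TMM factors), Selenop was 207, 193 and 187 in the 3 Sham rats. It was 177, 211 and 274 in the HF rats, 164, 169 and 161 in the HFE rats, and 252, 265 and 287 in the BAIBA rats. The HFE rats were the lowest 3 of all and lay below every Sham and HF rat, and the BAIBA rats lay above every Sham and HFE rat. One HF rat, at 274 CPM, reached into the BAIBA range, so HF and BAIBA overlapped.

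The group means of Selenop were 196 ± 10.3 CPM in Sham, 220.5 ± 49.5 in HF, 165 ± 4.09 in HFE and 268 ± 17.7 in BAIBA (SD, n = 3 each). Between BAIBA and HFE the log2 fold change was 0.70 (SE 0.09), a 1.63-fold higher level, with an adjusted p of 0.0483 from edgeR's quasi-likelihood test. It was the only call in any member in 6 pairwise comparisons, and in this comparison 0.108% of 14844 genes were called. It did not reach the log2 fold change of 1 that the study asked of a differentially expressed gene. The call was lost in edgeR without HFE rat 1 (adjusted p = 0.203), HFE rat 2 (0.286), HFE rat 3 (0.133), BAIBA rat 2 (0.068) or BAIBA rat 3 (0.153), and was kept without BAIBA rat 1 (0.0415), with log2 fold changes from 0.66 to 0.74.

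Selenop between HFE and HF had a log2 fold change of -0.42 (SE 0.15, adjusted p = 0.627, edgeR), without overlap, as in 6.21% of genes in that direction. Without the HF rat at 274 CPM, HF rat 3, that value was -0.24. Between HFE and Sham it was -0.25 (SE 0.07, adjusted p = 0.299), without overlap, as in 8.36% of genes lower in HFE rats. Between BAIBA and Sham it was 0.46 (SE 0.09, adjusted p = 0.279), again without overlap, as in 6.58% of genes higher in BAIBA rats. None of these passed the threshold. Between HF and Sham the difference was 0.17 (SE 0.16), and between BAIBA and HF it was 0.28 (SE 0.16), both with overlap. Without HF rat 3 they were -0.02 and 0.47.

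Gpx3, the peroxidase secreted into plasma, had the same order of group means as Selenop. Its levels were 169, 173 and 239 CPM in the Sham rats and 162, 200.0 and 294 CPM in the HF rats. They were 173, 112 and 141 CPM in the HFE rats and 294, 218 and 274 CPM in the BAIBA rats. The BAIBA rats were above all HFE rats, and they overlapped with the Sham and HF rats.

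The means of Gpx3 were 194 ± 39.7 CPM in Sham, 219 ± 67.9 in HF, 142 ± 30.6 in HFE and 262 ± 39.2 in BAIBA (SD, n = 3 each). The log2 fold change between BAIBA and HFE was 0.89 (SE 0.18), a 1.85-fold higher level and larger than that of Selenop, but its adjusted p was 0.174 (edgeR). The replicate number was also used as a block, which pairs the rats of these 2 groups, although the labels give numbers and no pairing. The adjusted p was then 0.0241 for Gpx3 and 0.0487 for Selenop (edgeR), in a fit that called 50 of 14844 genes against 16 without the block. Both members lay without overlap between BAIBA and HFE, as did 7.30% of genes higher in BAIBA rats. Between HFE and HF the difference in Gpx3 was -0.62 (SE 0.25, adjusted p = 0.648), with overlap, and without HF rat 3 it was -0.36. Between HFE and Sham it was -0.45 (SE 0.20), between BAIBA and Sham 0.44 (SE 0.17), between BAIBA and HF 0.26 (SE 0.23) and between HF and Sham 0.17 (SE 0.24), none past the threshold.

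Gpx1, the abundant cytosolic peroxidase, did not follow the secreted pair. It stood at 354, 362 and 358 CPM in the Sham rats and at 269.5, 378 and 466.5 CPM in the HF rats. It stood at 379.7, 338 and 341 CPM in the HFE rats and at 335.5, 231 and 322 CPM in the BAIBA rats. All BAIBA rats were below all HFE and all Sham rats, by a small margin from HFE (335.5 against 338), and the HF rats overlapped with every other group.

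For Gpx1 the means were 358 ± 4.07 CPM in Sham, 371 ± 98.7 in HF, 353 ± 23.2 in HFE and 296 ± 56.8 in BAIBA (SD, n = 3 each). The log2 fold change was -0.25 (SE 0.15, adjusted p = 0.66, edgeR) between BAIBA and HFE, where 8.29% of genes were lower without overlap. It was -0.27 (SE 0.14, adjusted p = 0.746) between BAIBA and Sham, where 6.11% of genes were lower without overlap. In the remaining comparisons the rats overlapped, and the largest difference was -0.32 (SE 0.22) between BAIBA and HF.

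Because Selenop was high and Gpx1 low in BAIBA rats, their order within a rat was compared, which needs no scaling between rats. This ratio was chosen after the values were seen. Selenop exceeded Gpx1 in FPKM in 3 of 12 rats, and these were the 3 BAIBA rats, with a ratio of 1.08 to 1.65. The ratio was 0.751 to 0.839 in Sham rats, 0.800 to 0.939 in HF rats and 0.619 to 0.717 in HFE rats. The HFE rats had the lowest ratios and did not overlap with any other group. By contrast, Selenop over Gpx3 was 2.07 to 2.94 in BAIBA rats and 2.29 to 3.65 in HFE rats, which overlap.

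**Figure D2:**
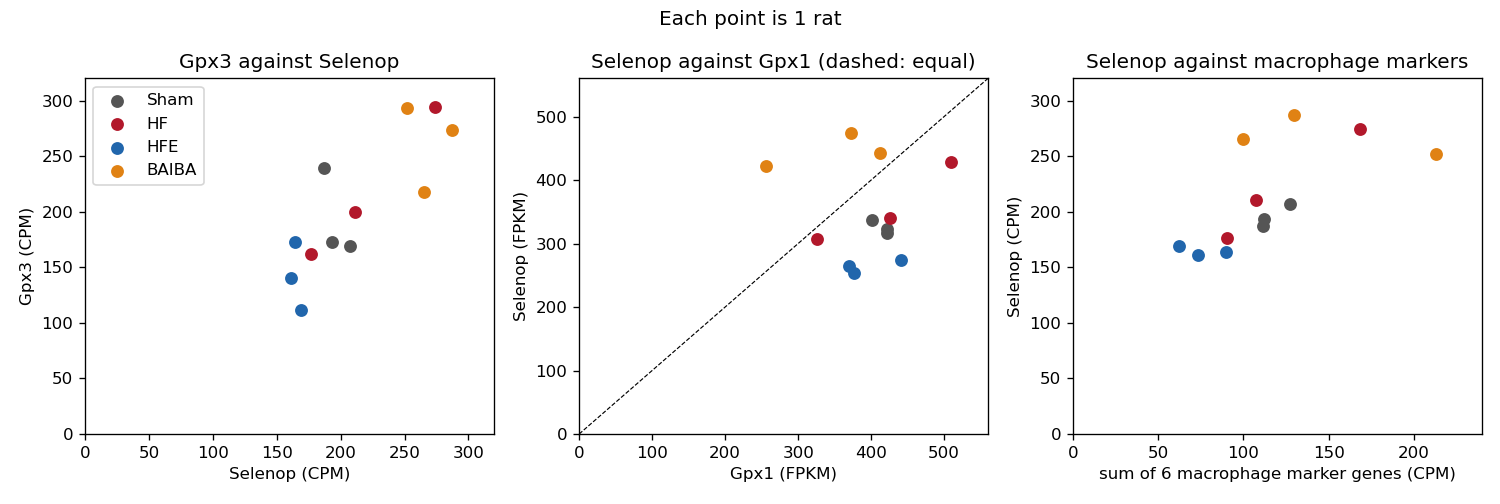
Each point is 1 rat, coloured by group: Gpx3 against Selenop (both CPM), Selenop against Gpx1 (both FPKM, with a dashed line where they are equal) and Selenop (CPM) against the summed CPM of 6 macrophage marker genes. Only the 3 BAIBA rats lie above the line of equality, and the HFE rats have the lowest Selenop levels and the lowest macrophage sums (62.2 to 89.7 CPM).

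Across the 12 rats, log2 CPM of Selenop and Gpx3 had a Pearson r of 0.822, and of 0.507 after the group means were removed. Selenop and Gpx1 had an r of -0.06 over the 12 rats but 0.707 after the group means were removed. These are descriptions over 12 libraries that share the scaling, with the rats of 4 groups in them. By the same measure, the 5 genes most like Selenop among 12924 genes were Mocs2, a subunit of molybdopterin synthase (r = 0.891), C1r, a protease of the complement cascade (0.880), Gsn, the actin-severing gelsolin (0.874), Nucb2, the precursor of nesfatin (0.861), and Cyp39a1, an oxysterol hydroxylase (0.860). Gpx3 was at rank 24 in that order, and Txnrd1 lay at the other end, with an r of -0.56 to Selenop.

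The thioredoxin reductases differed little between groups. Txnrd1, the cytosolic enzyme, was 88.3, 88.8 and 75.9 CPM in the Sham rats, 82.5, 77.2 and 61.9 in the HF rats, 67.6, 80.3 and 81.7 in the HFE rats, and 72.5, 65.4 and 71.9 in the BAIBA rats. The BAIBA rats were below all Sham rats, with a log2 fold change of -0.26 (SE 0.10, adjusted p = 0.638, edgeR). In its other comparisons the rats overlapped, with differences from -0.20 to 0.05. Txnrd2, the mitochondrial enzyme, ranged from 33.7 to 48.9 CPM over the 12 rats, and no group mean differed from another by more than 0.06 on the log2 scale.

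Selenow, a small thioredoxin-like protein that is abundant in muscle, was either at its usual level or near 0. In BAIBA rat 3 it had 14 counts (0.842 CPM) and in Sham rat 3 it had 16 counts (1.04 CPM). In the other 10 rats it had 375 to 640 counts (21.4 to 37.0 CPM), a gap of 20.5-fold between the higher of the low rats and the lowest of the others. Its SD within groups was 2.05 on the log2 scale, against a median of 0.24 over tested genes, and 99.6% of genes had a smaller one.

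Among 15617 tested genes, a gap of at least 10-fold below the rest in the same 2 rats was found for 2, Selenow and AABR07014855.1, and the latter did not exceed 2.11 CPM in any rat. A gap of that size in any pair of rats was found for 52 genes. By this rule, a gene with 0 counts in its 2 lowest rats passed however few counts the other rats had. AABR07014855.1 passed in that way, with 0 CPM in both rats and 0.056 CPM in the next. These counts are therefore not a measure of how often a gap like that of Selenow occurred. The table lists a paralog of Selenow, LOC103689961, at 0 to 5 counts per rat, in the low rats as in the others.

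The remaining rats gave Selenow at 27.1 and 35.1 CPM in Sham, 21.4, 29.2 and 27.1 in HF, 32, 32.7 and 37.0 in HFE, and 35.9 and 36.2 in BAIBA. The log2 fold change between HFE and HF, which the low rats do not enter, was 0.39 (SE 0.13, adjusted p = 0.627, edgeR), without overlap, as in 8.14% of genes higher in HFE rats. The 5 comparisons with a low rat had SEs of 0.97 to 1.49. Between HF and Sham the value moved from 0.29 to -0.25 without the low rat, between BAIBA and HF from -0.09 to 0.48, and between BAIBA and HFE from -0.48 to 0.09, none past the threshold.

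The members of the endoplasmic reticulum were Selenot, a thioredoxin-like protein, and Selenok, a membrane protein that works with the palmitoyltransferase Zdhhc6. Selenot ranged from 31.2 to 39.9 CPM over the 12 rats, its differences did not exceed 0.09 on the log2 scale, and its SD within groups (0.11) was smaller than that of most genes. Selenok was 26.4, 30.8 and 36.3 CPM in the Sham rats, 35.4, 37.5 and 38.5 in the HF rats, 44.0, 35.9 and 40.9 in the HFE rats, and 42.8, 32.1 and 36.3 in the BAIBA rats. The Sham rats had the lowest mean, and every infarcted group overlapped with them through Sham rat 3. For Selenok, the log2 fold change of all 9 infarcted rats against Sham was 0.29 (SE 0.11, adjusted p = 0.757, edgeR), and between HFE and Sham it was 0.38 (SE 0.13, adjusted p = 0.365).

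**Figure D3:**
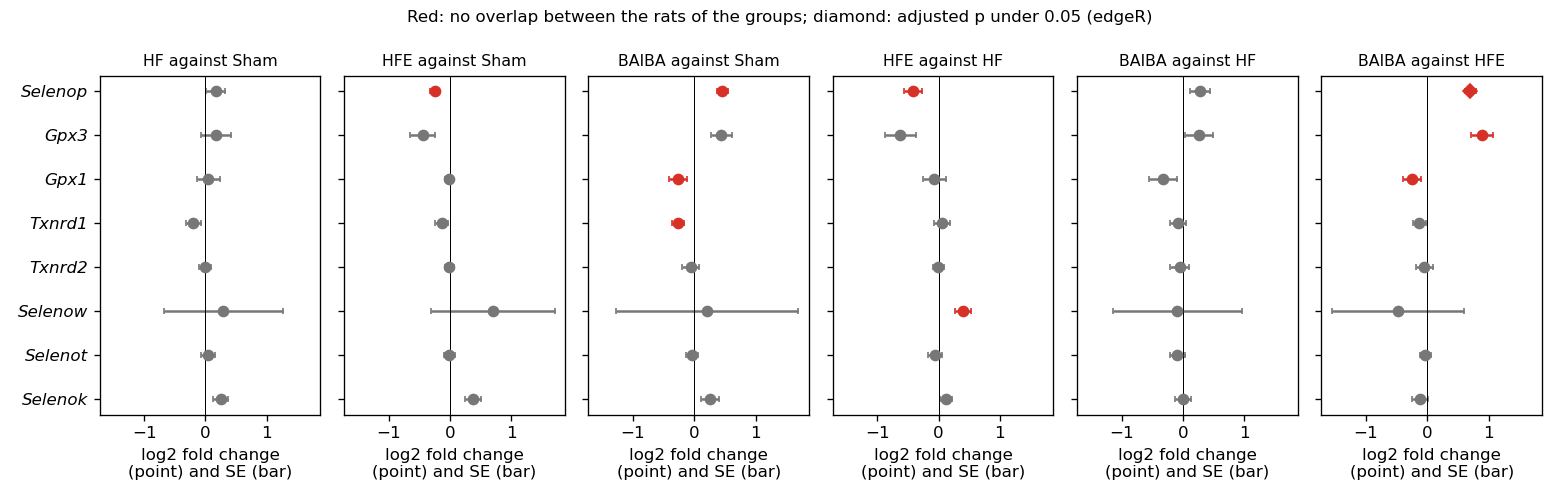
Log2 fold change (x axis, point) with its SE (bar) of the 8 tested members (y axis) in the 6 pairwise comparisons, from edgeR. Red points mark groups whose rats do not overlap, and the diamond, Selenop between BAIBA and HFE at 0.70, is the one value with an adjusted p under 0.05; Selenow has the widest SEs.

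Counted together, the 8 tested members gave 1 call between BAIBA and HFE and 0 in the other comparisons, and at an unadjusted p under 0.05 there were 2 between BAIBA and HFE. At that unadjusted level there were 0 between HF and Sham (898 of 14957 genes in all), 3 between HFE and HF, 0 between BAIBA and HF, 2 between HFE and Sham, 3 between BAIBA and Sham, 1 between all infarcted rats and Sham, and 2 for a difference among the 4 groups. The shares over all genes at that level were 7.62%, 5.55%, 11.2%, 7.41%, 6.35% and 9.71% from HFE against HF onwards, and 9.57% between BAIBA and HFE. Over all genes, the adjusted threshold was passed by 0.108% between BAIBA and HFE, 0.0402% between BAIBA and Sham and 0 in the other comparisons. Groups without overlap were found for 0 members between HF and Sham (5.41% of genes higher and 6.33% lower), 0 between BAIBA and HF (5.99% and 5.44%) and 0 between all infarcted rats and Sham (0.538% and 0.480%). Between HFE and Sham there was 1 lower member, Selenop (8.36% of genes lower), and 0 higher (9.47%). Between BAIBA and HFE, Selenop and Gpx3 were higher without overlap (7.30% of genes) and Gpx1 lower (8.29%). Between BAIBA and Sham, Selenop was higher (6.58%) and Gpx1 and Txnrd1 lower (6.11%). Between HFE and HF, Selenow was higher (8.14%) and Selenop lower (6.21%). Per comparison, the median log2 fold change of the members lay between -0.08 and 0.11, and that of all genes between -0.01 and 0.01. DESeq2 called 2 members between BAIBA and HFE (Selenop and Gpx3), 1 between BAIBA and Sham and 1 among the 4 groups.

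Of 14 other selenoproteins, 10 were tested, and 0 were called by edgeR in any comparison, with 0 to 2 at an unadjusted p under 0.05. Selenof, which works in protein folding, was the most abundant of them (46.9 FPKM), and Gpx2, Dio1, Selenov and Dio3 had too few counts to test. Txnrd3, a reductase known from testis, was 21.5 to 23.2 CPM in the Sham rats and 16.4 to 20.3 CPM in the infarcted rats, so all 9 were below all 3. Its log2 fold change in that comparison was -0.29 (SE 0.08, adjusted p = 0.737), where 0.480% of genes were lower without overlap. Selenof was higher without overlap in HFE (0.18, SE 0.07) and BAIBA rats (0.23, SE 0.10) than in Sham rats, and Selenoi, an enzyme of phospholipid synthesis, was lower in BAIBA than in HF rats (-0.40, SE 0.17). None of these passed the threshold.

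The machinery that makes and inserts selenocysteine was tested through 12 genes, of which 0 were called, with a median log2 fold change of 0.02 between BAIBA and HFE. Secisbp2, the binding protein of the insertion hairpin, was 21.8 to 22.4 CPM in Sham and 22.4 to 27.1 CPM in HF rats, with differences from -0.16 to 0.13 over the pairwise comparisons. Sephs1, a relative of the enzyme that makes the selenium donor, differed by 0.09 (SE 0.09) between BAIBA and HFE, without overlap. Eif4a3, a helicase that can block insertion, was higher in HF than in Sham rats by 0.21 (SE 0.10, adjusted p = 0.808) and lower in BAIBA than in HF rats by -0.28 (SE 0.12). Ncl, nucleolin, which binds the hairpin, differed by -0.08 (SE 0.08) between HFE and HF, without overlap. Rpl30, a ribosomal protein that also binds the hairpin, varied from 24.3 to 90.6 CPM between rats, and its difference between BAIBA and HF was 0.84 (SE 0.31, adjusted p = 0.851).

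The receptors that take up Selenop were Lrp8, Lrp2 and Lrp1, and 0 were called in any comparison. Lrp8, the receptor used by brain and testis, was 3.42 to 4.55 CPM in the Sham rats, 2.41 to 4.68 in HF, 1.06 to 2.50 in HFE and 1.74 to 2.46 in BAIBA. The HFE and BAIBA rats lay below all Sham rats, with log2 fold changes of -1.20 (SE 0.32, adjusted p = 0.296, edgeR) and -0.90 (SE 0.25, adjusted p = 0.532). Lrp1, a broad scavenger receptor, was 95.1 to 108 CPM in HFE rats, below the 136 to 146 CPM of Sham rats (-0.46, SE 0.08, adjusted p = 0.129) and the 121 to 167 CPM of BAIBA rats (BAIBA against HFE 0.47, SE 0.13, adjusted p = 0.268). The HFE rats, the lowest in Selenop, thus also had the lowest mean of Lrp1.

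Among 14 partners and homologues with cysteine in place of selenocysteine, 0 were called. Gpx8, a peroxidase of the endoplasmic reticulum, was 3.95 to 4.53 CPM in HFE and 5.57 to 9.58 CPM in BAIBA rats, with a log2 fold change of 0.74 (SE 0.24, adjusted p = 0.362, edgeR). Gpx7, its relative, was 4.04 to 5.34 CPM in HFE and 5.65 to 8.74 CPM in BAIBA rats (0.49, SE 0.24, adjusted p = 0.566). Txn2, the mitochondrial thioredoxin and substrate of Txnrd2, was 97.7 to 111 CPM in Sham and 61.7 to 83.1 CPM in HF rats (-0.54, SE 0.12, adjusted p = 0.737). It was 86.3 to 96.7 CPM in HFE and 89.9 to 121 CPM in BAIBA rats, above all HF rats in both (0.32, SE 0.12, and 0.53, SE 0.15), while Txnrd2 stayed within 0.06. Txn1, the cytosolic thioredoxin, differed by 0.11 (SE 0.08) between HFE and HF, without overlap.

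Txnrd1 is also a target of Nrf2, the transcription factor of the antioxidant response, and 7 targets were tested, Txnrd1 among them, with 0 called. Hmox1, the inducible heme oxygenase, was 13.7 to 17.7 CPM in Sham, 7.93 to 18.7 in HF, 5.55 to 8.45 in HFE and 11.9 to 20.6 in BAIBA rats. Its log2 fold change was 1.12 (SE 0.26, adjusted p = 0.188, edgeR) between BAIBA and HFE and -1.18 (SE 0.18, adjusted p = 0.121) between HFE and Sham, both without overlap. Gclm, a subunit of the enzyme that starts glutathione synthesis, was lower in HFE than in Sham rats by -0.27 (SE 0.15, adjusted p = 0.524). The median over the targets was -0.13 between BAIBA and HFE, so Hmox1 stood apart from the others of its list.

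Since Dio2 activates thyroid hormone, genes of thyroid hormone transport and response were listed too, and 10 or 11 of 14 were tested. Myh7, the slow β-myosin that thyroid hormone represses, was the one gene called, with log2 fold changes of -2.08 (SE 0.13, adjusted p = 0.00237, edgeR) between BAIBA and HFE and -1.17 (SE 0.10, adjusted p = 0.00864) between BAIBA and Sham. Myh6, the fast α-myosin that it induces, was lower without overlap in HF (-0.62, SE 0.12) and HFE rats (-0.73, SE 0.13) than in Sham rats, and Hr, a corepressor induced by the hormone, was higher in BAIBA than in HFE rats (0.83, SE 0.31), none past the threshold. Slc16a10, a transporter of the hormone, was lower in BAIBA than in Sham rats (-0.39, SE 0.17). Of 7 tested partners of Selenok in the degradation of misfolded proteins, 0 were called. Sel1l was lower without overlap in BAIBA rats than in HF (-0.18, SE 0.09), HFE (-0.10, SE 0.09) and Sham rats (-0.08, SE 0.08), and Derl1 differed by 0.11 (SE 0.08) between HFE and HF.

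**Figure D4:**
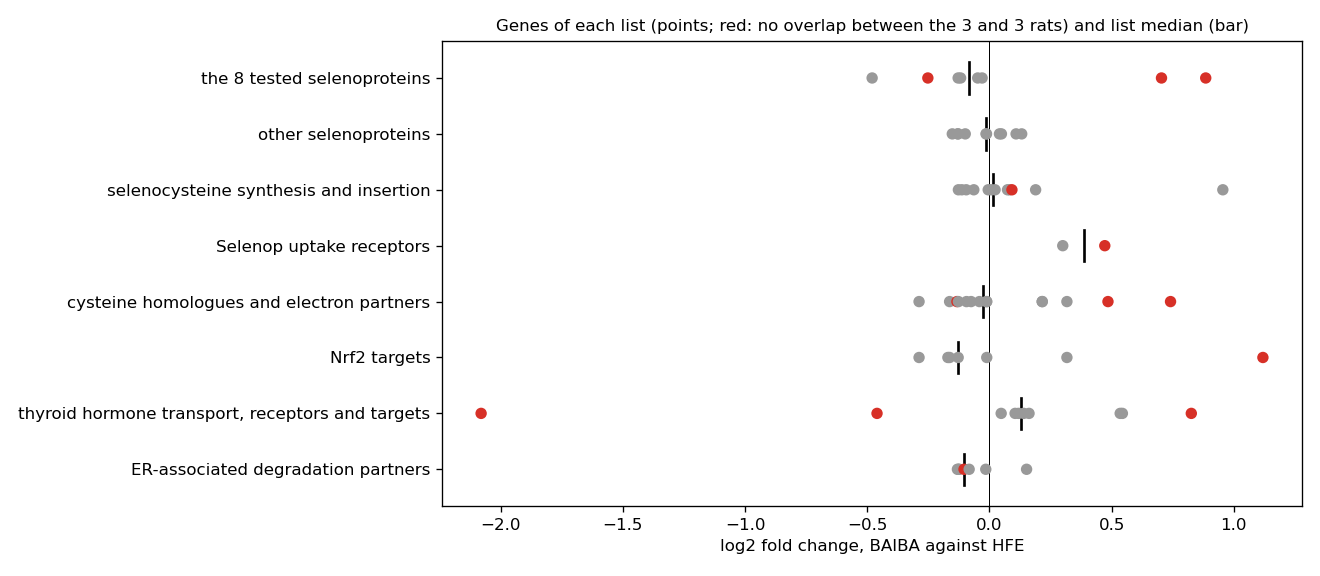
Log2 fold change between BAIBA and HFE (x axis) of each tested gene (point) in the members and the 7 related lists (y axis), with the list median as a bar and red for genes without overlap between the rats. Selenop (0.70) and Gpx3 (0.89) stand to the right of the other members, and Myh7 (-2.08) and Hmox1 (1.12) are the extreme points of the related lists.

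Whole tissue was sequenced, so more cells of a type and more RNA per cell cannot be told apart. The label heart was checked by 6 cardiomyocyte markers, whose sum lay between 32410 and 41520 CPM in the 12 rats. The sum of 4 atrial markers varied more, from 12.3 CPM in BAIBA rat 2 to 540 CPM in HF rat 3, where Nppa made up 511 CPM. It overlapped between BAIBA (12.3 to 216 CPM) and HFE rats (28.5 to 195 CPM). Whether the share of atrial tissue differed between rats was not tested. The summed level of 6 macrophage markers was 62.2 to 89.7 CPM in HFE rats and 99.7 to 213 CPM in BAIBA rats, without overlap, and the HFE rats were also below all Sham (111 to 127) and HF rats (90.3 to 168). All 6 markers were higher in BAIBA than in HFE rats, with a median log2 fold change of 0.99 and 0 called. The HF rat with the highest Selenop, Gpx1 and Gpx3, HF rat 3, had the highest macrophage sum of the HF rats (168 CPM). Its sums of erythroid (1127 CPM), fibroblast (1605 CPM) and atrial markers (540 CPM) were also the highest of the HF rats.

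The sums of 5 erythroid markers (717 to 827 CPM in HFE and 909 to 1301 in BAIBA) and of 4 mesothelial markers (19.1 to 23.4 and 23.8 to 72.5) also lay apart between BAIBA and HFE. Of the markers tested there, 4 of 5 erythroid and 1 of 2 mesothelial ones were higher in BAIBA rats. Wt1, the largest part of the mesothelial sum in HFE rats, overlapped (19.1 to 23.4 CPM in HFE and 17.9 to 22.7 CPM in BAIBA). The fibroblast sums overlapped (1042 to 1498 and 1399 to 1992 CPM), although all 6 markers were higher in BAIBA rats, with a median of 0.46. Markers of hepatocytes, the main source of circulating Selenop, summed to 7.58 to 12.7 CPM over the 12 rats and overlapped between these groups. Nearly all of that sum was Ttr (7.47 to 12.65 CPM), the 1 marker tested, while Alb, Apoa1, Serpina1 and Fgb were near 0. The Pearson r of Selenop with the macrophage sum was 0.736 over 12 rats and 0.449 after group means were removed, and for Gpx3 it was 0.874 and 0.749. With the erythroid sum it was 0.714 and 0.735 for Selenop, and 0.511 and 0.382 for Gpx3. With the fibroblast sum it was 0.623 and 0.464 for Selenop, and 0.733 and 0.654 for Gpx3. With the mesothelial sum it was 0.499 and -0.252 for Selenop, and 0.594 and 0.35 for Gpx3. With the atrial sum it was -0.135 and 0.222 for Selenop, 0.163 and 0.583 for Gpx3, and 0.678 and 0.579 for Gpx1. The part of these cell types in the levels of Selenop, Gpx3 and Gpx1 was not tested.

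In the RefSeq annotation of GRCr8, Ccdc152 overlaps Selenop on the opposite strand, and without knowing whether reads were counted by strand, reads of the overlap cannot be assigned. Ccdc152 was 30.8 to 42.8 CPM in HFE and 33.5 to 90.5 CPM in BAIBA rats (0.76, SE 0.36, adjusted p = 0.58, edgeR), against 161 to 169 and 252 to 287 CPM for Selenop. Total counts were between 14812541 and 19732588 per rat, and the correlations of log2 CPM between rats of a group (0.963 to 0.986) were like those between groups (0.965 to 0.984). No replicates agreed within sampling noise.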

How the data were processed

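Libraries from poly(A) RNA were paired-end. According to the methods, the authors used HISAT2 for alignment, StringTie for genes missing from the annotation and featureCounts (Subread) for counting. Versions were not given in the sources used here, and the build named in the processing notes is a mouse build, so no genome coordinates of the files are used. The deposited counts are raw whole numbers per gene, and the authors made the FPKM values from them and the gene lengths. The labels gave 4 groups and replicate numbers, and each rat is a separate animal. The supplement describes BAIBA for Sham and HF rats too, and the methods and labels were followed.

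The test was the one in edgeR 4.0.16 under R 4.3.3 (TMM, filterByExpr, robust quasi-likelihood F test) on the rats of the groups compared, with Benjamini-Hochberg adjustment over all genes tested and a threshold of 0.05. Adjusted p-values are from edgeR unless another tool is named. SEs were derived from the log2 fold change and its F statistic. CPM used TMM factors over 12 rats. All-infarcted and 4-group tests were fitted on all rats. No overlap means that the ranges of both groups did not touch. The script was tested on simulated data. The changes planted there were larger than any difference of the members, so that test does not show whether changes of the members' size would be found. Alternatives were DESeq2 1.42.0, limma 3.58.1 on FPKM, other scalings and filters, the replicate block and each rat left out.

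The members and lists were chosen with earlier results of these data known. Beside the 10 members, the text names list genes that were called, or that were among the 2 largest changes of their list without overlap, and the 5 genes most like Selenop. Same-numbered BAIBA and HFE rats deviated together (r = 0.199, 0.216 and 0.125 over genes), a hint from the data, since the labels give numbers only. In the other comparisons at least 1 r was 0.1 or less. Promoter sequences are from RefSeq (GRCr8).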

Additional observations from a re-analysis of the deposited data

How the results depend on the processing

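Of 928 log2 fold changes of the members under the alternatives, 925 stayed within 1 within-group SD of that gene from the main value. Where only 1 of the 2 rats with Selenow near 0 was in a comparison, leaving out both repeated the fit without that rat. Both fits are counted. The sign was opposite to the main value in 53 of the 928, 0 of which belonged to a called value, and the main values concerned were at most 0.48 in size. The 3 that moved were Selenop without HF rat 3 (-0.02 between HF and Sham, -0.24 between HFE and HF, 0.47 between BAIBA and HF). The SD used was 0.172 for Selenop but 2.05 for Selenow. The shifts of Selenow without a low rat, given above, therefore counted as staying. Of 2552 values of the other list genes, 2525 stayed and 27 moved.

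The main count of members called was 1 between BAIBA and HFE and 0 elsewhere. Between BAIBA and HFE it was 2 at an unadjusted p under 0.05, 2 with DESeq2 and 2 with the replicate block. It was 0 with library size only, with all 12 rats in 1 fit, and with limma on log2(FPKM + 1) and log2(FPKM + 0.1). It was also 0 without both rats with Selenow near 0, an alternative chosen after seeing the data. Of these rats only BAIBA rat 3 enters this comparison, so that fit is the same as the fit without BAIBA rat 3. The count ranged from 0 to 1 with a rat left out. At an unadjusted p under 0.05 it was 3 between HFE and HF, 2 between HFE and Sham, 3 between BAIBA and Sham, 1 for all infarcted rats and 2 for the 4 groups, and with DESeq2 it was 1 between BAIBA and Sham and 1 for the 4 groups. The replicate block changed no other member call.

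For Selenop between BAIBA and HFE, the log2 fold change was 0.66 to 0.76 over 16 alternatives, and its adjusted p ran from 1.46e-08 (DESeq2) to 0.286 (edgeR without HFE rat 2), under the threshold in 6. It was 0.0513 with library size only, 0.0867 with all rats in 1 fit and 0.227 and 0.246 with limma. For Gpx3 the adjusted p was 0.000361 with DESeq2, and it passed in 2 of 16 alternatives.

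Over all genes, the replicate block called 50 genes between BAIBA and HFE against 16 without it, 1 against 0 between HFE and Sham, 9 against 6 between BAIBA and Sham and 5 against 0 for the 4 groups. DESeq2 called 326 genes between BAIBA and HFE against 16 by edgeR, 121 against 6 between BAIBA and Sham, 52 against 0 between HF and Sham, 46 against 0 between HFE and HF, 38 against 0 between BAIBA and HF, 171 against 0 between HFE and Sham, 23 against 0 for all infarcted rats and 333 against 0 for the 4 groups. The cause was not tested. Gpx4 could not be compared at 1 to 12 counts.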
